A study of Arabidopsis with 12 samples.

Results

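Core histones package DNA, and tubulins build microtubules. In these Arabidopsis thaliana seedling libraries, the transcripts of most genes of both kinds stood at a higher level in the libraries labelled -Fe than in those labelled +Fe, in wild type and in the pad4 mutant. The genes were the loci of the authors' expression table whose annotation names "Core histone" or "tubulin/FtsZ" and that had 1 FPKM or more in at least 3 of the 12 libraries, where FPKM stands for fragments per kilobase of transcript scaled to the mapped fragments of the library. Of 28693 loci in the table, 58 carried the annotation (39 the histone wording and 19 the tubulin wording), and 53 of them, from 50 genes, passed the level threshold. The histone wording names a protein fold rather than a function: 27 of the 53 loci were core histones and 7 were NF-YC genes, which share the fold but encode subunits of a transcription factor. The tubulin wording gave 16 tubulin loci and 3 FtsZ genes, the plastid relatives of tubulin.

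A nucleosome is DNA wrapped around H2A, H2B, H3 and H4. Dividing plant cells make large amounts of the replication-type histones during S phase, while variants enter chromatin at other times: H2A.Z sits around gene starts, H2A.W in silent heterochromatin, and H2A.X marks DNA breaks when phosphorylated. Alpha and beta tubulins pair into the building block of microtubules, which guide cellulose deposition in growing cells and form the spindle and the phragmoplast in dividing ones, and gamma tubulin seeds new microtubules. FtsZ forms the ring that divides plastids, and NF-YC proteins join NF-YB and NF-YA subunits on CCAAT boxes.

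The 12 libraries were mRNA sequencing libraries of seedlings, 3 in each of 4 groups: wild type (Col-0) and pad4 (phytoalexin deficient 4), each kept for 7 d on complete nutrient medium (labelled +Fe) or on that medium without Fe (labelled -Fe). All groups were grown at 24 °C under 140 μmol photons per m2 and s with 16 h light and 8 h dark. The labels do not give the pad4 allele, or whether replicates came from separate cultures, so p-values measure the spread between these libraries. One field names the tissue as shoot, another seedlings, while the protocol speaks of RNA from both leaves and roots, taken at an age of 7 d.

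The Fe labels went against the Fe status genes. Transcripts of bHLH100 and IMA1, both known to be induced by Fe deficiency, stood at 976 to 1137 and 536 to 753 FPKM in the libraries labelled +Fe and at 0.122 to 0.666 and 1.88 to 5.50 FPKM in those labelled -Fe. FER1, a ferritin gene known to be induced by Fe supply, stood at 10.3 to 11.8 FPKM labelled +Fe and at 271 to 333 FPKM labelled -Fe. Every Fe comparison here is therefore by label alone. PAD4 stood at 18.1 to 22.0 FPKM in wild type and 10.3 to 13.6 FPKM in pad4. The libraries' read totals are not given in the table. The sum of FPKM per library lay between 894824 and 1004002, and depth relative to the first wild-type library labelled +Fe, read from the steps of the low values, lay between 0.56 and 1. In each group 1 library stood apart: wild type labelled +Fe 2, wild type labelled -Fe 2, pad4 labelled +Fe 2 and pad4 labelled -Fe 3. Over all loci tested, their deviations from their group means correlated with each other at r = 0.411 to 0.511 over 6 pairs. Results are given with these 4 libraries, and without them where that changes a call. They were picked by their deviations in these data, so leaving them out can itself add calls, and it leaves fewer libraries per group. Calls gained that way are a description.

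Differences were tested with limma on log2(FPKM + 1) over 20173 loci in 1 fit of all 4 groups, and a locus was called at a Benjamini-Hochberg adjusted p under 0.05. Differences below are in log2 units on that scale, with their standard error (SE), and understate the change of low genes. Many histone and tubulin genes are near copies of each other, and how the authors' counting shared reads between copies is not given in the sources used here, so single-copy values are uncertain. Where the text says how many alternatives ended a call, the demand for a difference of 1 log2 unit is left out, since many called differences are smaller. In bulk RNA, fewer cells of a type and less RNA per cell cannot be told apart.

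**Figure D1:**
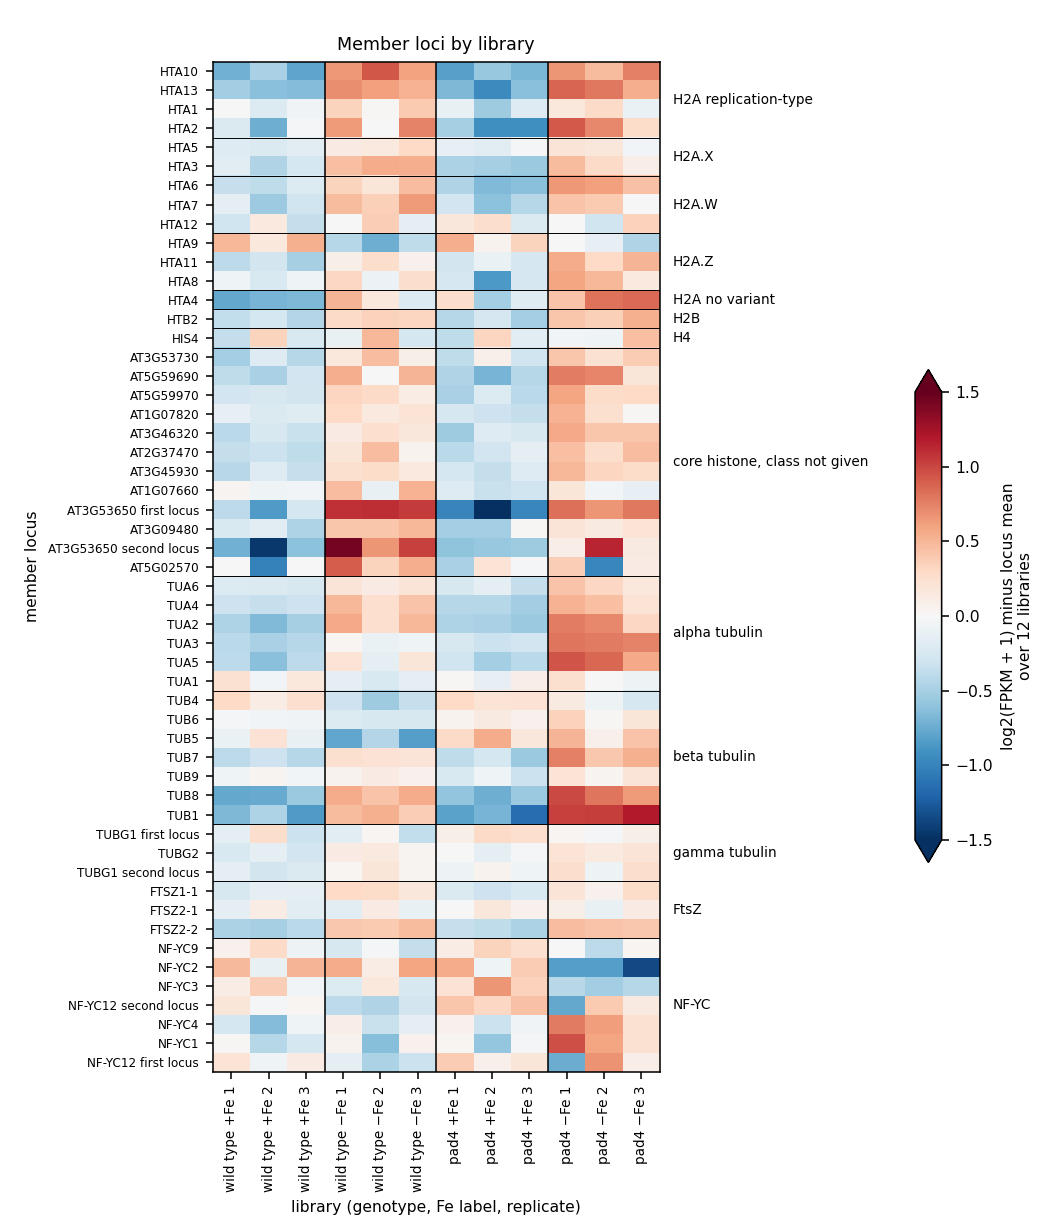
Heat map of the 53 member loci (rows, grouped by class) in the 12 libraries (columns, 3 per group). Colour is log2(FPKM + 1) minus the mean of the locus over all libraries, red for above and blue for below, with the scale ending at 1.5 units. Most histone and tubulin rows are red under both groups labelled -Fe, while HTA9 and TUB4 are red under both groups labelled +Fe and TUB5 under both pad4 groups.

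In wild type, 36 of the 53 members were called between the Fe labels, 32 higher and 4 lower in the libraries labelled -Fe, where 51.9% of all loci tested were called, 25.2% higher and 26.7% lower. In pad4, 41 members were called, 36 higher and 5 lower, where 57.4% of all loci were called, 26.3% higher and 31% lower. The median difference of the members was 0.42 in wild type and 0.64 in pad4, and the medians of all loci were -0.02 and -0.05. Among the called members, the level ranges of both labels overlapped only for HTA5 in pad4. These ranges come from the values that made the calls and were not counted over all loci, so they add no support. Without the 4 libraries that stood apart, 39 members were called in each genotype, 34 higher and 5 lower, beside 55.6% and 61.4% of all loci. Deviations of same-numbered wild-type libraries correlated at 0.12 to 0.511, the highest between those numbered 2, which both stood apart. Library 1 labelled +Fe correlated more with 3 labelled -Fe (0.285) than with 1 (0.12). Library 3 labelled +Fe correlated more with 1 labelled -Fe (0.235) than with 3 (0.194). The values thus do not pair libraries 1 and 3 by number. When the fit of wild type alone blocked on replicate number, 47 members were called beside 66.1% of all loci. These held the 36, with HTA1, HTA8, HTA12, AT5G02570, NF-YC2 and TUB9 added as higher. TUB6, NF-YC3, NF-YC9 and both NF-YC12 loci were added as lower. The added members had adjusted p from 0.000778 to 0.0486 in this limma fit. The labels do not pair these libraries. The block was chosen because their deviations in these data correlated, which can itself add calls, so the added calls are a description.

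By family, 20 of 27 core histone loci were called higher and 1 lower in wild type, and 22 higher and 1 lower in pad4. Summed over the 27 loci, core histone transcripts stood at 1430.5 ± 15.6 FPKM (mean ± SD, n = 3) in wild type labelled +Fe and 2042 ± 42.9 labelled -Fe. In pad4 the sums were 1402 ± 23.0 and 2162 ± 130.0 FPKM. The 6 libraries labelled +Fe lay between 1387 and 1445 FPKM and the 6 labelled -Fe between 2003 and 2311 FPKM, with no overlap.

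The replication-type H2A genes had the largest median difference among the H2A groups, 1.00 in wild type and 1.37 in pad4. Their 4 members, HTA1, HTA2, HTA10 and HTA13, summed to 166 ± 3.19 FPKM in wild type labelled +Fe and 375 ± 16.3 labelled -Fe, and to 152 ± 1.56 and 366 ± 17.6 FPKM in pad4. HTA10 (chromosome 1, 18926876 to 18927646, TAIR10), the most abundant of them, stood at 87.5, 103 and 83.6 FPKM in wild type labelled +Fe and 228, 277 and 221 FPKM labelled -Fe. In pad4 the values were 82.3, 97.1 and 89.5 and 229, 202 and 245 FPKM. All 6 libraries labelled -Fe lay above all 6 labelled +Fe, a rise of 1.39 ± 0.11 (SE, adjusted p = 1.59e-06) in wild type and 1.32 ± 0.11 (SE, adjusted p = 2.4e-06) in pad4. HTA13 (chromosome 3, 7229407 to 7231194) ran at a lower level with the same separation, 26.4, 24.4 and 24.0 FPKM in wild type labelled +Fe and 62.9, 59.5 and 55.6 FPKM labelled -Fe. Its pad4 libraries held 23.7, 19.3 and 24.5 and 70.9, 67.1 and 56.4 FPKM. The difference was 1.22 ± 0.11 (SE, adjusted p = 2.4e-06) in wild type and 1.49 ± 0.11 (SE, adjusted p = 4.75e-07) in pad4. HTA2 also rose in both genotypes, by 0.78 (adjusted p = 0.0171) and 1.41 (adjusted p = 0.000426). HTA1, known as RAT5 for its role in Agrobacterium transformation, ranged from 25.8 to 29.9 FPKM in wild type labelled +Fe and from 30.3 to 39.4 labelled -Fe. It did not pass the test in wild type, 0.33 ± 0.14 (SE, adjusted p = 0.0623), and rose in pad4, 0.40 ± 0.14 (SE, adjusted p = 0.0273). It was called in wild type too without the 4 libraries that stood apart, 0.39 (adjusted p = 0.00183).

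Among the variants, both H2A.X genes and 2 of the 3 H2A.W genes rose with the label in both genotypes. HTA3 (H2A.X) rose by 0.81 (adjusted p = 3.99e-05) in wild type and 0.80 (adjusted p = 3.92e-05) in pad4. HTA5 (H2A.X) differed by 0.38 (adjusted p = 0.00188) and 0.21 (adjusted p = 0.0378), and in pad4 its ranges overlapped, 84.0 to 93.1 FPKM labelled +Fe and 91.6 to 109 labelled -Fe. Its pad4 call was lost with a replicate block in the limma fit of all groups (adjusted p = 0.0557). The authors' deposited table has a q-value of 0.162 for it in pad4. HTA6 (H2A.W) stood at 64.1, 62.5 and 70.6 FPKM in wild type labelled +Fe and 104, 93.0 and 113 FPKM labelled -Fe. In pad4 it stood at 59.5, 51.2 and 52.7 and 129, 126 and 111 FPKM. The labels separated the libraries in both genotypes, and HTA6 rose by 0.64 (adjusted p = 0.000137) and 1.15 (adjusted p = 1.31e-06). All pad4 libraries labelled +Fe lay below the wild-type ones of that label, and 2 of the 3 pad4 libraries labelled -Fe lay above. HTA7 rose by 0.82 (adjusted p = 0.000472) and 0.71 (adjusted p = 0.00114), and HTA12, the remaining H2A.W gene, did not pass the test in either genotype (0.24, adjusted p = 0.348 and -0.055, adjusted p = 0.832). HTA4, an H2A gene that was given no variant here, stood at 3.05 to 3.32 FPKM in wild type labelled +Fe and 4.97 to 8.77 labelled -Fe, a rise of 0.86 (adjusted p = 0.00469), with 0.85 (adjusted p = 0.00494) in pad4. The pad4 call of HTA4 was lost without the 4 libraries that stood apart, 0.59 (adjusted p = 0.0707).

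The H2A.Z genes did not move as 1 group. HTA9 (chromosome 1, 19645268 to 19649261), the most abundant H2A locus by mean level over all libraries although HTA10 stood above it in both groups labelled -Fe, was the only core histone called lower in either genotype. It stood at 242, 192 and 249 FPKM in wild type labelled +Fe and 128, 103 and 132 FPKM labelled -Fe. In pad4 the values were 251, 179 and 217 and 171, 157 and 125 FPKM. The wild-type and the pad4 ranges of the labels were each separate, and it fell by 0.91 (adjusted p = 0.000567) in wild type and by 0.51 (adjusted p = 0.0175) in pad4. Leaving out pad4 labelled +Fe 1 or pad4 labelled -Fe 3 ended the call in pad4 (adjusted p = 0.0721 and adjusted p = 0.0667). HTA11 rose in both genotypes, by 0.53 (adjusted p = 0.000551) and 0.66 (adjusted p = 9.18e-05), and HTA8 rose in pad4 by 0.87 (adjusted p = 0.00139) but did not pass the test in wild type (0.28, adjusted p = 0.205). HTA8 was called higher in wild type as well without the 4 libraries that stood apart, 0.35 (adjusted p = 0.00267). The summed level of HTA8, HTA9 and HTA11, the genes classed as H2A.Z here, was 277 ± 29.7 FPKM in wild type labelled +Fe and 190.0 ± 13.7 labelled -Fe. In pad4 it was 267 ± 35.5 and 237 ± 26.9 FPKM.

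HTB2 was the only locus with the histone wording that was classed as H2B here. It stood at 78.6, 84.2 and 74.4 FPKM in wild type labelled +Fe and 124, 129 and 127 FPKM labelled -Fe. Its pad4 libraries held 75.0, 84.7 and 70.9 and 136, 130.0 and 147 FPKM. All libraries labelled -Fe lay above all labelled +Fe, a rise of 0.68 ± 0.079 (SE, adjusted p = 2.75e-05) in wild type and 0.84 ± 0.079 (SE, adjusted p = 4.81e-06) in pad4. HIS4, the only locus classed as H4 here, was different. Since other core histone loci were given no class, HIS4 does not stand for all H4 genes. Its values were 65.4, 106 and 72.1 FPKM in wild type labelled +Fe, 78.2, 119.9 and 70.4 labelled -Fe, 64.7, 106 and 75.4 in pad4 labelled +Fe and 81.9, 80.4 and 116 labelled -Fe. In each group the highest value came from the library that stood apart, and the groups overlapped. HIS4 was not called in wild type (0.13, adjusted p = 0.689) or in pad4 (0.19, adjusted p = 0.548), nor without those 4 libraries (0.11, adjusted p = 0.324 and 0.21, adjusted p = 0.0679).

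A further 12 loci carry the core histone annotation under gene identifiers only, and the tables used here do not give their class. Of these, 10 rose in wild type and 10 in pad4, and none was called lower. The most abundant, AT3G53730 (chromosome 3, 19912494 to 19913033), stood at 190.4, 237 and 201 FPKM in wild type labelled +Fe and 301, 373 and 289 FPKM labelled -Fe. The pad4 values were 207, 284 and 220.4 and 361, 317 and 351 FPKM. The ranges did not overlap within a genotype, with rises of 0.61 (adjusted p = 0.00285) and 0.54 (adjusted p = 0.00548). The largest rises of all members came from AT3G53650, whose reads the table splits over 2 loci of the same span (chromosome 3, 19889358 to 19890179). Its first locus held 10.8, 7.61 and 11.9 FPKM in wild type labelled +Fe and 32.2, 32.3 and 31.0 FPKM labelled -Fe. In pad4 it held 6.79, 2.78 and 6.85 and 26.6, 23.5 and 25.8 FPKM. The labels were far apart in both genotypes, with rises of 1.59 ± 0.24 (SE, adjusted p = 0.000214) and 2.099 ± 0.24 (SE, adjusted p = 2.35e-05). The second locus held 0.656, 0 and 0.785 FPKM in wild type labelled +Fe and 6.38, 3.32 and 4.56 labelled -Fe, and 0.803, 0.845 and 0.893 and 1.94, 5.03 and 2.02 FPKM in pad4. It reached 1 FPKM in 6 libraries, all labelled -Fe, so it passed the level threshold only through the libraries where it was high, and its differences of 1.97 in wild type and 1.03 in pad4 are a description, although it is counted among the called.

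The other identifiers that rose in both genotypes were AT5G59690, AT5G59970, AT1G07820, AT3G46320, AT2G37470, AT3G45930 and AT3G09480, by 0.39 to 0.73 in wild type and 0.51 to 1.08 in pad4. The pad4 call of AT3G09480 was lost without the 4 libraries that stood apart, 0.41 (adjusted p = 0.0588). AT1G07660 was not called in wild type (0.31, adjusted p = 0.0933) or pad4 (0.28, adjusted p = 0.118), and was called in both without those libraries, 0.49 (adjusted p = 0.00166) and 0.32 (adjusted p = 0.0129). AT5G02570 lies 135 bases from HTA12 on chromosome 5 and is the member nearest the level threshold, with 1 FPKM or more in 9 libraries, a third-highest value of 2.59 FPKM and a maximum of 4.20 FPKM. It was not called in wild type (0.93, adjusted p = 0.0518) or pad4 (-0.057, adjusted p = 0.904). The next members inside the threshold by third-highest value were the second AT3G53650 locus at 4.56 FPKM and the first NF-YC12 locus at 7.36 FPKM. Outside it were NF-YC8 at 0.196 FPKM, AT1G08170 with a maximum of 0.119 FPKM, and NF-YC5, NF-YC6 and NF-YC7, each listed at 0 in all 12 libraries.

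**Figure D2:**
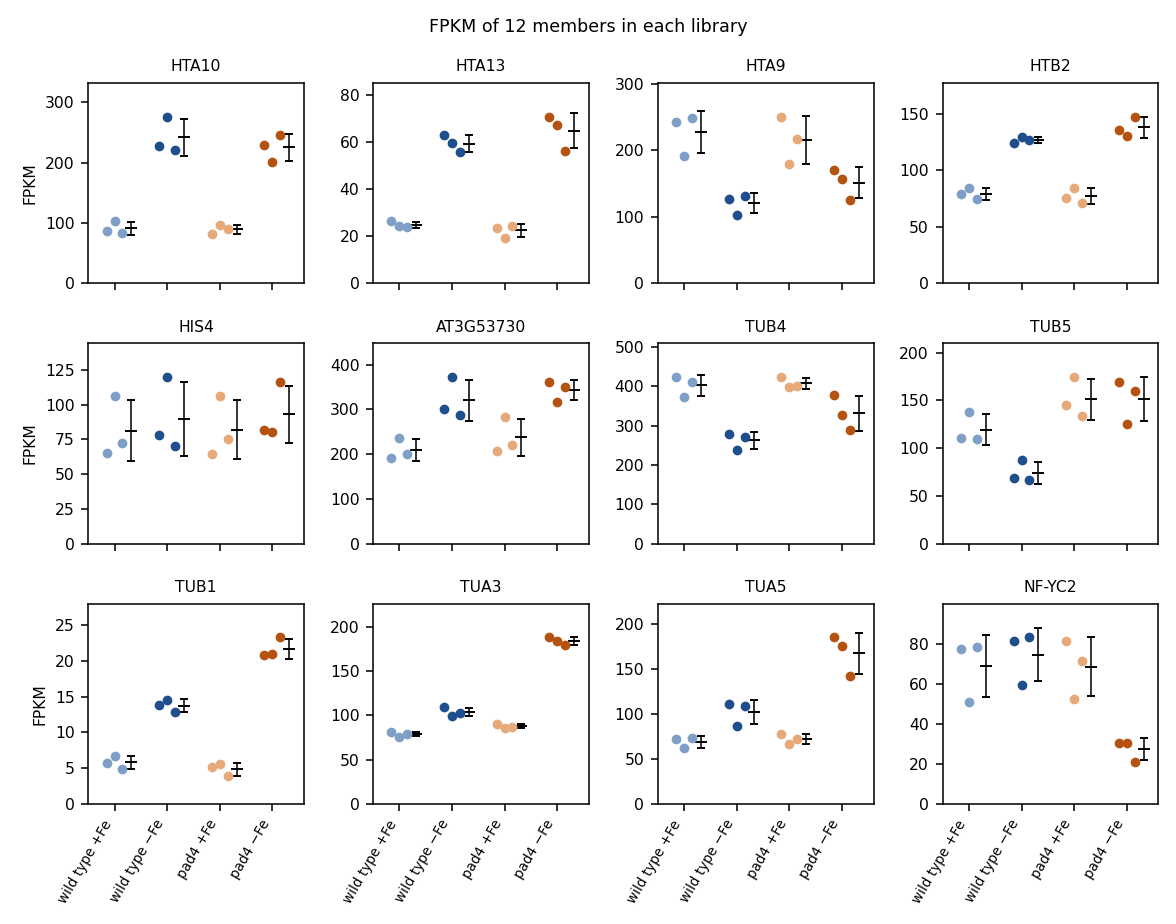
FPKM of 12 members in each library, from 0 upward, with 3 points per group and the mean ± SD (n = 3) as a black mark beside them. HTA10, HTA13 and HTB2 separate by label in both genotypes, HIS4 shows 1 high library in each group, and TUB1, TUA3, TUA5 and NF-YC2 set pad4 labelled -Fe apart from the other 3 groups.

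Alpha tubulins rose with the label and beta tubulins divided. Summed alpha tubulin stood at 696 ± 20.8 FPKM in wild type labelled +Fe and 1029 ± 70.7 labelled -Fe, and at 690.1 ± 24.1 and 1237 ± 130.0 FPKM in pad4. Summed beta tubulin stood at 844 ± 8.37 and 717 ± 12.1 FPKM in wild type, and at 881 ± 38.0 and 959 ± 98.2 FPKM in pad4. In wild type labelled -Fe, the alpha sum was above and the beta sum below that labelled +Fe in all libraries. In pad4 both sums were higher labelled -Fe in mean, with beta ranges of 839.9 to 915 and 886 to 1070.3 FPKM that overlapped.

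Of the 6 alpha tubulins, 5 were called higher in wild type and 1 lower, and 5 were called higher in pad4. TUA6, the most abundant, stood at 274, 272 and 268 FPKM in wild type labelled +Fe and 362, 345 and 363 FPKM labelled -Fe. In the mutant it reached 267, 287 and 246 and 426, 394 and 352 FPKM. The labels did not overlap in either genotype, with rises of 0.39 (adjusted p = 0.00173) and 0.55 (adjusted p = 0.000155). TUA2 and TUA4, which encode the same protein, rose by 0.98 (adjusted p = 3.76e-05) and 0.71 (adjusted p = 4.64e-05) in wild type and by 1.102 (adjusted p = 1.43e-05) and 0.85 (adjusted p = 1.09e-05) in pad4. TUA1, known as a pollen-preferred gene, stood at 30.7, 25.2 and 29.2 FPKM in wild type labelled +Fe and 23.6, 22.1 and 23.6 FPKM labelled -Fe. It was the alpha tubulin called lower in wild type, -0.28 ± 0.10 (SE, adjusted p = 0.0340), a call that 8 of the alternatives tried ended (adjusted p up to 0.127). In pad4 it did not pass the test (0.057, adjusted p = 0.640).

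TUA3 (chromosome 5, 6682493 to 6684579) and TUA5 (chromosome 5, 6687074 to 6690040), a neighbouring pair 2494 bases apart that also encode the same protein, rose in both genotypes. TUA3 stood at 80.7, 75.9 and 79.4 FPKM in wild type labelled +Fe and 109, 99.6 and 103 FPKM labelled -Fe. In pad4 it stood at 90.2, 85.2 and 87.3 and 188, 184 and 179.6 FPKM. The 3 pad4 libraries labelled -Fe lay above all other 9, with rises of 0.39 ± 0.057 (SE, adjusted p = 0.000146) in wild type and 1.06 ± 0.057 (SE, adjusted p = 4.97e-08) in pad4. TUA5 stood at 72.3, 61.5 and 72.6 and 111, 86.1 and 108 FPKM in wild type, labelled +Fe and -Fe. Its pad4 libraries held 77.4, 66.5 and 72.2 and 185, 175 and 142 FPKM. The order of the groups was that of TUA3, with rises of 0.55 ± 0.12 (SE, adjusted p = 0.00295) and 1.198 ± 0.12 (SE, adjusted p = 9.59e-06).

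Beta tubulins ranged from the strongest rises among the tubulins to clear falls. TUB1 (chromosome 1, 28451141 to 28453640), known for transcripts that are highest in roots, stood at 5.73, 6.74 and 4.93 FPKM in wild type labelled +Fe and 13.8, 14.5 and 12.8 FPKM labelled -Fe. The pad4 values were 5.14, 5.58 and 3.85 and 20.8, 21.0 and 23.3 FPKM. No group labelled -Fe overlapped with any other, with rises of 1.12 ± 0.13 (SE, adjusted p = 1.83e-05) in wild type and 1.96 ± 0.13 (SE, adjusted p = 2.03e-07) in pad4. TUB8 stood at 13.6, 13.7 and 15.9 FPKM in wild type labelled +Fe and 35.5, 32.4 and 35.4 FPKM labelled -Fe, a rise of 1.203 ± 0.10 (SE, adjusted p = 1.45e-06). In the mutant it reached 15.5, 14.0 and 15.9 and 48.3, 42.4 and 37.6 FPKM, a rise of 1.44 ± 0.10 (SE, adjusted p = 3.38e-07). TUB7 rose in both genotypes, by 0.59 (adjusted p = 0.000299) and 0.97 (adjusted p = 6.37e-06). TUB9 rose in pad4 (0.35, adjusted p = 0.00203) and did not pass the test in wild type (0.10, adjusted p = 0.294).

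TUB4 (chromosome 5, 17859195 to 17861101), the most abundant member by mean level over all libraries, went the other way. In both groups labelled -Fe, TUA6 and AT3G53730 stood above it. It stood at 424, 373 and 411 FPKM in wild type labelled +Fe and 278, 238 and 272 FPKM labelled -Fe. In pad4 it stood at 423, 398 and 402 and 379, 327 and 289.5 FPKM. The ranges by label did not overlap in either genotype, and it fell by 0.62 (adjusted p = 0.000370) in wild type and by 0.31 (adjusted p = 0.0234) in pad4, the second a call that 5 of the alternatives tried ended. TUB5 (chromosome 1, 6937795 to 6940582) stood at 111, 138 and 109 FPKM in wild type labelled +Fe and 68.9, 87.2 and 66.4 FPKM labelled -Fe. Its pad4 libraries held 145, 175 and 133 and 169, 125 and 160.2 FPKM. It fell in wild type, -0.68 ± 0.15 (SE, adjusted p = 0.00272), while the pad4 ranges overlapped (0.0026, adjusted p = 0.990). TUB6 was not called in wild type (-0.19, adjusted p = 0.0530) or pad4 (0.10, adjusted p = 0.270). TUB2 and TUB3 lie in 1 locus of the table that merges several genes and carries no annotation, so they are outside the members; that locus stood at 333 ± 10.3 FPKM in wild type labelled +Fe and 313 ± 8.41 labelled -Fe, and at 345 ± 16.3 and 343 ± 34.0 FPKM in pad4.

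Gamma tubulin ran at a far lower level. TUBG2 rose from 8.04, 8.60 and 7.73 FPKM in wild type labelled +Fe to 10.5, 10.8 and 9.90 labelled -Fe (0.32, adjusted p = 0.00229), and in pad4 from 9.59, 8.62 and 9.40 to 11.2, 10.8 and 11.1 FPKM (0.24, adjusted p = 0.0119). The pad4 call was lost without the 4 libraries that stood apart, 0.19 (adjusted p = 0.0559). TUBG1 is split over 2 loci of the same span. Its first locus was not called (-0.10, adjusted p = 0.560 in wild type and -0.18, adjusted p = 0.299 in pad4), with values from 8.51 to 13.9 FPKM over all libraries. Its second was called higher in wild type (0.30, adjusted p = 0.0286) and not in pad4 (0.18, adjusted p = 0.153), with values from 6.59 to 10.1 FPKM. The wild-type call ended under 4 of the alternatives tried, among them the fit without the 4 libraries that stood apart, 0.21 (adjusted p = 0.154).

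Of the FtsZ genes, FTSZ1-1 and FTSZ2-2 rose and FTSZ2-1 did not pass the test. FTSZ2-2 stood at 16.2, 16.0 and 17.0 FPKM in wild type labelled +Fe and 30.6, 30.3 and 32.3 FPKM labelled -Fe. The pad4 values were 17.8, 17.4 and 16.2 and 31.9, 31.3 and 30.7 FPKM. The labels were separate and the genotypes overlapped, with rises of 0.88 ± 0.06 (SE, adjusted p = 3.27e-07) and 0.83 ± 0.06 (SE, adjusted p = 5.18e-07). FTSZ1-1 rose from 58.6, 62.3 and 63.1 FPKM in wild type labelled +Fe to 85.2, 83.8 and 78.2 FPKM labelled -Fe (0.42, adjusted p = 0.000338). In pad4 it rose from 59.5, 55.9 and 58.9 to 79.3, 72.5 and 84.0 FPKM (0.43, adjusted p = 0.000270). FTSZ2-1 held 40.9 to 49.3 FPKM in wild type labelled +Fe and 40.7 to 49.7 labelled -Fe (0.0087, adjusted p = 0.951), with -0.044 (adjusted p = 0.733) in pad4.

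Of the 7 NF-YC loci, none was called in wild type by limma, with 1 at an unadjusted p under 0.05 and 1 lower at a q-value under 0.05 in the authors' deposited table. NF-YC3 was called lower in wild type without the 4 libraries that stood apart, -0.26 (adjusted p = 0.0220). With the replicate block in wild type alone, 5 of the 7 were called, NF-YC2 higher and 4 lower, beside 66.1% of all loci. In pad4, 2 were called higher and 3 lower, beside 26.3% and 31% of all loci. With 7 loci, these counts are not a result about the NF-YC genes. NF-YC2 (chromosome 1, 21024764 to 21025883) stood at 77.2, 50.9 and 78.5 FPKM in wild type labelled +Fe and 81.1, 59.4 and 83.3 FPKM labelled -Fe. In pad4 the values were 81.5, 52.3 and 71.6 and 30.6, 30.6 and 21.0 FPKM. The pad4 libraries labelled -Fe lay below all other 9, and the other 3 groups overlapped. It fell by label in pad4, -1.29 ± 0.22 (SE, adjusted p = 0.000459), and was not called in wild type (0.12, adjusted p = 0.662). NF-YC3 and NF-YC9, which act together with NF-YC4 in photoperiodic flowering, fell in pad4 by 0.86 (adjusted p = 0.000313) and 0.36 (adjusted p = 0.0389), and the second call ended under 7 of the alternatives tried (adjusted p up to 0.159). NF-YC9, the most abundant NF-YC gene in both pad4 groups, with NF-YC2 above it in both wild-type groups, stood at 65.0, 75.8 and 58.8 FPKM in wild type labelled +Fe, 52.1, 61.4 and 48.1 labelled -Fe, 67.3, 78.4 and 74.0 in pad4 labelled +Fe and 61.5, 47.0 and 63.4 labelled -Fe. Within wild type its ranges overlapped. NF-YC1 and NF-YC4 rose in pad4, by 0.79 (adjusted p = 0.0160) and 0.65 (adjusted p = 0.0104). Leaving out pad4 labelled +Fe 2 or pad4 labelled -Fe 1 ended the call of NF-YC1 (adjusted p = 0.0689 and adjusted p = 0.0729). NF-YC12 is split over 2 loci of the same span, and neither was called in a genotype; in pad4 labelled -Fe its second locus ranged from 10.3 to 24.1 FPKM.

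**Figure D3:**
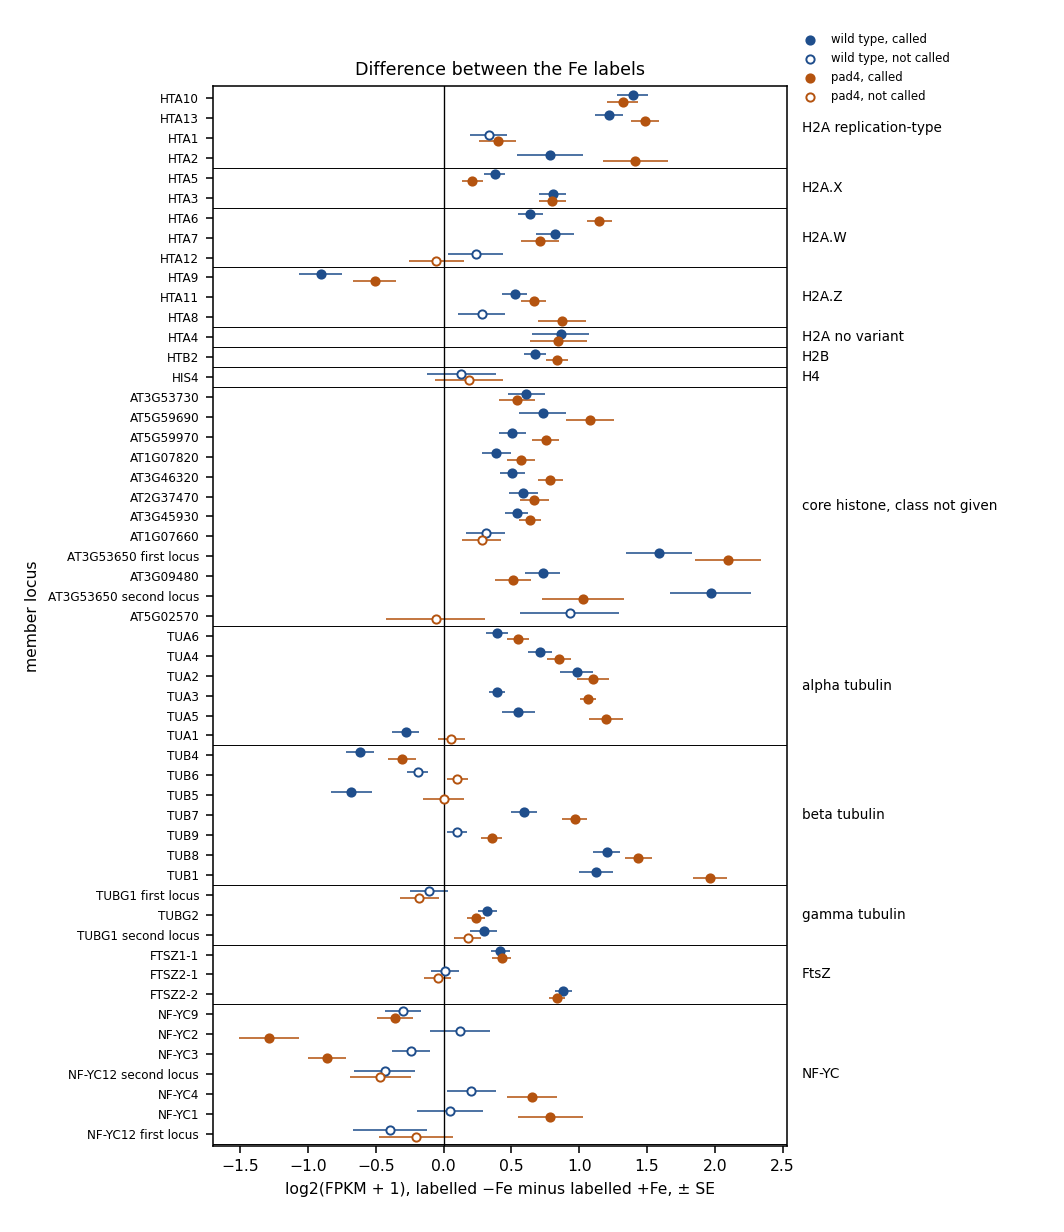
Difference between the Fe labels for each of the 53 members (rows, grouped by class) in log2(FPKM + 1), labelled -Fe minus labelled +Fe, in wild type (blue) and pad4 (orange). Bars are ± 1 SE from the limma fit and filled points were called at an adjusted p under 0.05. Histone and alpha tubulin points lie right of 0 apart from HTA9, TUA1 and a few uncalled points, while beta tubulins and NF-YC genes lie on both sides.

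Between the genotypes, the libraries labelled +Fe showed no called member by limma, where 9.35% of all loci tested were called, 3.69% higher and 5.66% lower in pad4. At an unadjusted p under 0.05 there were 8 of 53 members, beside 4725 of the 20173 loci tested. That count is not a result about the members. The authors' deposited table has 1 member higher and 2 lower at a q-value under 0.05, and its share over all loci is not given here. Those 3 are TUB5, at 0.33 in the authors' deposited table, HTA2 at -0.49 and the first AT3G53650 locus at -0.87. The first AT3G53650 locus had the smallest adjusted p in the limma fit as well, with 10.8, 7.61 and 11.9 FPKM in wild type and 6.79, 2.78 and 6.85 in pad4. Its ranges did not overlap, and the difference was -0.84 ± 0.24 (SE, adjusted p = 0.0557). Without the 4 libraries that stood apart, 4 members were called: HTA2, HTA3 and the first AT3G53650 locus lower, and the first TUBG1 locus higher, beside 15.6% of all loci. Deviations of same-numbered libraries of these groups correlated as well, at 0.197 to 0.47, the highest again between those numbered 2. The block was chosen for that, so calls added by blocking are a description here as well. Blocked on replicate number, the first AT3G53650 locus was called in the fit of all groups (adjusted p = 0.0280). In a blocked fit of both groups alone, 11 members were called, 6 higher and 5 lower, beside 28.6% of all loci. TUB5 had the smallest adjusted p there, 0.34 (adjusted p = 0.00377).

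Labelled -Fe, 13 of 53 members were called between the genotypes, 12 higher and 1 lower in pad4, where 27.9% of all loci were called, 13.5% higher and 14.4% lower, so the total is near the background. Tubulins made up 8 of the 12, and all 16 tubulin loci had a difference above 0, with a median of 0.26 against 0.01 over all loci. The tubulins called higher were TUB1, TUB4, TUB5, TUB6, TUB7, TUB8, TUA3 and TUA5. Of the 27 core histones, 2 were called higher, HTA11 (0.32, adjusted p = 0.0242) and AT3G46320 (0.28, adjusted p = 0.0405), with a median of 0.10. At a q-value under 0.05, the authors' deposited table has 5 tubulins and 0 core histones higher. Its q-values are 0.133 for HTA11, 0.205 for AT3G46320, 0.0556 for TUB7, 0.0908 for TUB4 and 0.0979 for TUB8. The 8 tubulin calls fell to 5 with the fit limited to both groups compared, without wild type labelled -Fe 3, or without pad4 labelled -Fe 1. Without the 4 libraries that stood apart, 21 members were called, 17 higher and 4 lower, with 10 tubulins higher, and 5 core histones higher and 2 lower. All 13 calls were among the 21, and the share of all loci called rose as well, from 27.9% to 31.9%. Those added were TUA1, TUA2, HTA8, HTA9 and AT5G59690 as higher and AT1G07660, NF-YC3 and the first AT3G53650 locus as lower.

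TUB5 differed most. Its pad4 libraries labelled -Fe held 169, 125 and 160.2 FPKM and the wild-type ones 68.9, 87.2 and 66.4 FPKM. The groups did not overlap, at 1.02 ± 0.15 (SE, adjusted p = 0.000405). TUA3 was higher in pad4 by 0.82 ± 0.057 (SE, adjusted p = 1.23e-06) and TUA5 by 0.71 ± 0.12 (SE, adjusted p = 0.00123), from the values given above. TUB1 was higher by 0.62 (adjusted p = 0.00313), TUB6 by 0.41 (adjusted p = 0.00172) and TUB7 by 0.35 (adjusted p = 0.0170). TUB4 (0.33, adjusted p = 0.0317) and TUB8 (0.30, adjusted p = 0.0420) lay near the threshold, and 6 and 11 of the alternatives tried ended their calls. NF-YC1 stood at 9.34, 5.43 and 9.46 FPKM in wild type and 18.5, 14.1 and 10.7 FPKM in pad4. Its groups did not overlap, at 0.77 ± 0.24 (SE, adjusted p = 0.0347), and 5 of the alternatives tried ended the call (adjusted p up to 0.133). NF-YC4 was also higher in pad4, 0.67 (adjusted p = 0.0184). NF-YC2 was the only member lower, -1.42 ± 0.22 (SE, adjusted p = 0.000584).

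Of genes known for other tissues, 2 of 7 root genes tested, 3 of 10 meristem and young organ genes and 2 of 7 green leaf genes were called between the genotypes labelled -Fe, all higher in pad4, beside 13.5% of all loci called higher. The summed level of 19 root genes, of which 7 reached a mean of 1 FPKM, was 470 to 531 FPKM in pad4 labelled -Fe and 318 to 357 FPKM in the other 3 groups. That of 13 meristem and young organ genes, of which 10 reached it, was 70.2 to 79.5 FPKM in wild type labelled +Fe, 99.6 to 107 labelled -Fe, 66.1 to 78.6 in pad4 labelled +Fe and 114 to 134 labelled -Fe. No gene of either list was at 0 in all libraries. The summed level of 7 green leaf genes was 15710 to 17917 FPKM in wild type labelled +Fe and 22929 to 28620 labelled -Fe, and 16454 to 18871 and 28280 to 35959 FPKM in pad4. All 7 had a difference above 0 between the genotypes labelled -Fe, with a median of 0.36. The part of these tissues in the histone and tubulin differences was not tested.

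**Figure D4:**
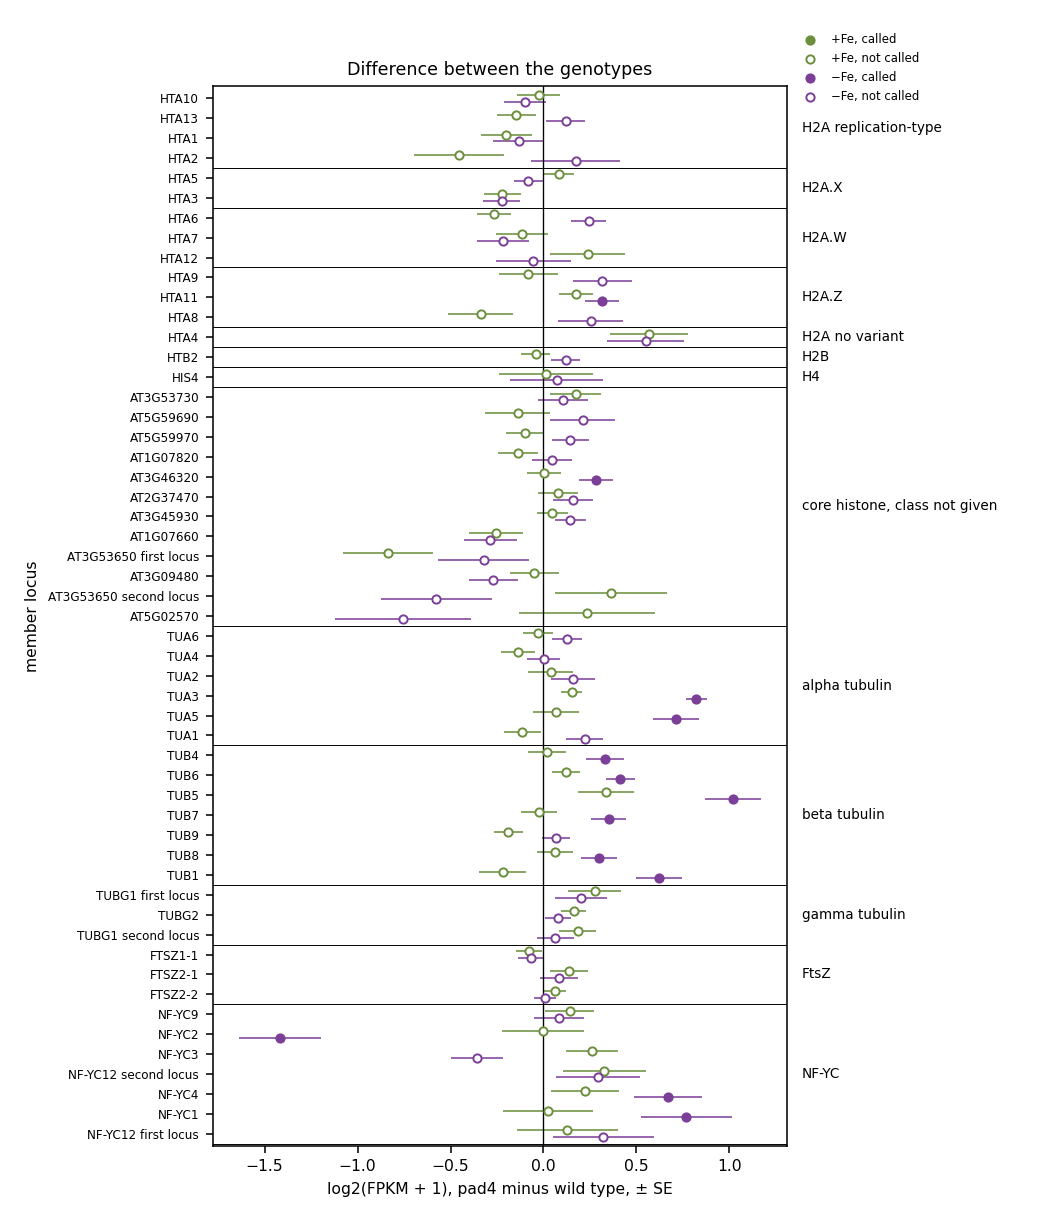
Difference between the genotypes for each of the 53 members (rows, grouped by class) in log2(FPKM + 1), pad4 minus wild type, among libraries labelled +Fe (green) and -Fe (purple). Bars are ± 1 SE from the limma fit and filled points were called at an adjusted p under 0.05. No green point is filled, and the filled purple points are mainly beta tubulins, TUA3, TUA5 and NF-YC genes, with TUB5 at 1.02 and NF-YC2 at -1.42 the farthest out.

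The interaction term tests whether the label difference itself differs between the genotypes. It was called for 5 of 53 members, 4 higher and 1 lower in pad4, where 14.7% of all loci were called, 7.07% higher and 7.58% lower, so the count is not a result about the members. TUA3 had the smallest adjusted p: its label difference was 0.39 in wild type and 1.06 in pad4, and they differed by 0.67 ± 0.081 (SE, adjusted p = 0.000241). TUB1 differed by 0.84 ± 0.18 (SE, adjusted p = 0.00840), TUA5 by 0.65 ± 0.18 (SE, adjusted p = 0.0303) and HTA6 by 0.51 ± 0.13 (SE, adjusted p = 0.0232). NF-YC2 differed by -1.41 ± 0.31 (SE, adjusted p = 0.0110). TUB5, called lower in wild type and not called in pad4, did not pass the test of that difference (0.68, adjusted p = 0.0545), and passed it without the 4 libraries that stood apart (0.76, adjusted p = 0.0200). Without those libraries 13 members were called, 11 higher and 2 lower, beside 9.92% and 10.3% of all loci. The others added were HTA2, HTA8, HTA9, AT5G59690, TUB4 and NF-YC4 as higher and NF-YC3 as lower. The call of HTA6 ended without wild type labelled +Fe 3, pad4 labelled +Fe 2 or 3, or pad4 labelled -Fe 1 or 2 (adjusted p up to 0.0658), and 8 of the alternatives tried ended that of TUA5 (adjusted p up to 0.0784).

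No H3 gene carries the histone wording, and further H2B genes carry another annotation, so both were taken from their RefSeq names (assembly TAIR10.1), a list added after the data were seen. H3.1 is the replication-type H3, and H3.3 the form laid down through the cell cycle in transcribed genes. All 4 H3.1 genes rose in wild type and in pad4, with medians of 0.59 and 1.05, and their summed level was 278 to 303 FPKM in wild type labelled +Fe and 439 to 475 labelled -Fe. Of the 3 H3.3 genes, AT4G40040 fell in wild type, -0.47 ± 0.10 (SE, adjusted p = 0.00265), none other was called there, and in pad4 AT4G40030 was called higher, 0.76 ± 0.28 (SE, adjusted p = 0.0358). The summed H3.3 level was 1384 to 1569 FPKM in wild type labelled +Fe and 1082 to 1217 labelled -Fe. H3.1 transcripts stood above, and H3.3 transcripts below, in all wild-type libraries labelled -Fe. In pad4 the H3.1 sum was 236 to 284 FPKM labelled +Fe and 483 to 561 labelled -Fe, while the H3.3 sums overlapped at 1298 to 1361 and 1254 to 1524 FPKM. Of the H2B genes outside the annotation, HTB1, HTB4 and HTB11 rose in wild type and these with HTB9 in pad4, with medians of 0.53 and 0.64. HTR12, the centromeric H3, rose by 0.76 ± 0.14 (SE, adjusted p = 0.000897) in wild type and 0.80 ± 0.14 (SE, adjusted p = 0.000594) in pad4.

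Genes that work beside histones and tubulins were counted from lists of known members, set against medians of -0.02 and -0.05 over all loci and against the 25.2% higher and 26.7% lower in wild type and the 26.3% and 31% in pad4 among all loci. All 11 mitotic genes tested rose in both genotypes, with medians of 1.00 and 1.25. The mitotic cyclin gene CYCB1;2 stood at 4.83 to 5.67 FPKM in wild type labelled +Fe and 13.9 to 14.9 labelled -Fe, a difference of 1.31 ± 0.09 (SE, adjusted p = 3.8e-07). The Aurora kinase gene AUR1 rose by 1.46 ± 0.12 (SE, adjusted p = 1.23e-06) and the kinase gene CDKB2;1 by 0.96 ± 0.081 (SE, adjusted p = 1.96e-06). Of 35 replication genes, 21 rose and 4 fell in wild type, and 19 rose and 5 fell in pad4, with medians of 0.31 and 0.35. The origin licensing genes CDT1A and CDT1B rose in wild type by 1.21 ± 0.075 (SE, adjusted p = 1.54e-07) and 1.49 ± 0.091 (SE, adjusted p = 1.4e-07). TSO2, a ribonucleotide reductase gene, stood at 366 to 420.4 FPKM in wild type labelled +Fe and fell to a range of 122 to 141 FPKM labelled -Fe, -1.57 ± 0.093 (SE, adjusted p = 1.14e-07).

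Of 25 histone chaperone and linker histone genes, 5 were called higher and 6 lower in wild type, and 5 higher and 7 lower in pad4, with medians of 0.03 and -0.03. These counts are near or below those of all loci and are not a result about the list. H1.3, a linker histone known to be induced by stress, stood at 18.3 to 28.0 FPKM in wild type labelled +Fe and 1.26 to 2.21 labelled -Fe, a difference of -3.12 ± 0.18 (SE, adjusted p = 1.08e-07). The nucleosome assembly gene NAP1;1 fell as well, -1.04 ± 0.11 (SE, adjusted p = 1.63e-05). FAS2, a subunit of the chaperone that loads H3 and H4 behind the replication fork, rose by 0.72 ± 0.10 (SE, adjusted p = 7.23e-05).

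Of 20 tubulin folding genes, 3 were called higher and 5 lower in wild type, and 6 higher and 4 lower in pad4, again with no share far above that of all loci. The chaperonin subunit CCT4 rose by 0.36 ± 0.061 (SE, adjusted p = 0.000478) in wild type, while CCT6B (-0.53 ± 0.10 SE, adjusted p = 0.000866) and the folding cofactor TFCD (-0.53 ± 0.092 SE, adjusted p = 0.000534) fell. Of 32 genes for microtubule-associated proteins, 9 rose and 4 fell in wild type, and 10 rose and 5 fell in pad4, with medians of 0.08 in both. These counts are near or below those of all loci as well and are not a result about the list. MAP65-3, which bundles microtubules in the phragmoplast, stood at 1.88 to 2.04 FPKM in wild type labelled +Fe and 7.29 to 7.64 FPKM labelled -Fe, a difference of 1.53 ± 0.11 (SE, adjusted p = 4.23e-07). The spindle-associated gene EB1C rose by 1.28 ± 0.10 (SE, adjusted p = 9.35e-07), and TON1B, needed for the preprophase band, fell by 1.57 ± 0.15 (SE, adjusted p = 4.65e-06).

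Among 10 plastid division genes that work with FtsZ, 4 rose and none fell in each genotype, with medians of 0.22 and 0.21; in wild type PARC6 rose by 0.50 ± 0.078 (SE, adjusted p = 0.000231), PDV1 by 0.70 ± 0.11 (SE, adjusted p = 0.000351) and MINE1 by 0.35 ± 0.08 (SE, adjusted p = 0.00374). Of 9 genes for cell cycle inhibitors and the endocycle, 3 rose and 2 fell in each genotype, which is near the shares of all loci. SMR5, an inhibitor known to be induced by oxidative stress, stood at 47.9 to 57.1 FPKM in wild type labelled +Fe and 0.522 to 1.71 labelled -Fe, a difference of -4.79 ± 0.20 (SE, adjusted p = 5.21e-09). SMR7 fell as well, -2.45 ± 0.36 (SE, adjusted p = 0.000156), and SMR1 rose, 0.66 ± 0.12 (SE, adjusted p = 0.000862).

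**Figure D5:**
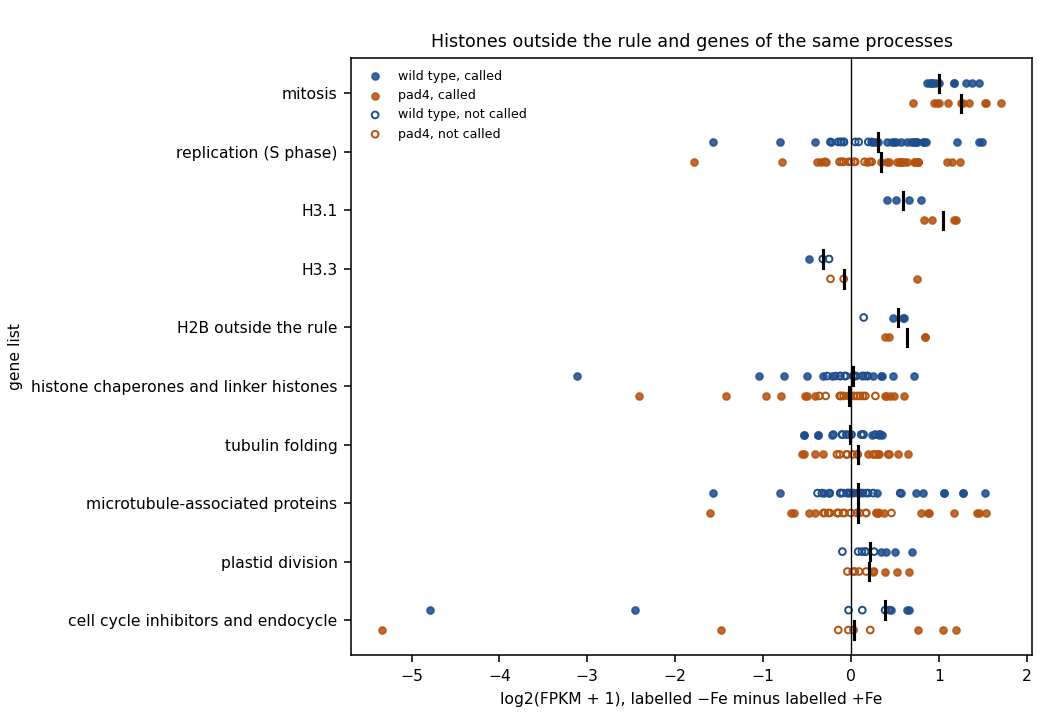
Difference between the Fe labels, labelled -Fe minus labelled +Fe in log2(FPKM + 1), for histones outside the annotation and for lists of genes of the same processes, in wild type (blue) and pad4 (orange). Each point is a gene, filled where called, and the black bars are list medians. Mitotic and H3.1 genes lie wholly right of 0, with medians of 1.00 and 0.59 in wild type, while chaperone, tubulin folding and microtubule-associated genes spread around 0.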

How the data were processed

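FPKM values per locus and library were taken from the authors' deposited expression table, with TAIR10 as genome build in the submitters' processing notes; the tool behind them and its strand setting are not stated. The authors' deposited comparison tables give a log2 fold change and a q-value per locus, and were used for counts of calls and the values named as theirs. R 4.3.3 and limma 3.58.1 (empirical Bayes with trend) were run on log2(FPKM + 1) for 20173 loci with 1 FPKM or more in at least 3 libraries, with 4 group means, 5 contrasts and Benjamini-Hochberg adjustment over all loci. The fit was tested on simulated data. The labels do not say that replicate numbers pair libraries. Deviations from the group means of same-numbered libraries correlated over 0.1 in all 3 pairs between wild type labelled +Fe and -Fe (0.12 to 0.511) and between wild type and pad4 labelled +Fe (0.197 to 0.47), so blocked values are given for both comparisons; with pad4 labelled -Fe they correlated at -0.424 to 0.137. Identifiers of all 58 annotated loci matched RefSeq (TAIR10.1), and 45 had a symbol. FPKM keep no read counts, so no counting interval is given. The members, lists and tests were chosen with earlier results of these data known. Named members were the 4 largest called rises and falls per contrast, the highest of each class, classes of 3 or fewer, those at the threshold, and, from each list, up to 3 genes of smallest adjusted p; other members are named to account for all 53. Alternatives were pseudocount, filter, scaling, variance model, replicate block, size threshold and left-out libraries. Sequences were not used here.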

Additional observations from a re-analysis of the deposited data

Results flagged for a closer look

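For 5 members the difference between the Fe labels itself differed between wild type and pad4, by limma's interaction term with adjustment over all 20173 loci, of which 14.7% were called, a larger share than among the 53 members. TUA3 had 0.67 ± 0.081 (SE, adjusted p = 0.000241), TUB1 0.84 ± 0.18 (SE, adjusted p = 0.00840) and TUA5 0.65 ± 0.18 (SE, adjusted p = 0.0303): all 3 rose with the label in both genotypes and did so more in pad4, where all 3 libraries labelled -Fe exceeded the other 9. TUA3 and TUA5 are neighbours that encode the same protein, and reads may be shared between them. HTA6, an H2A.W gene, had 0.51 ± 0.13 (SE, adjusted p = 0.0232). The calls of HTA6 and TUA5 ended under 5 and 8 of the alternatives tried, not counting the demand for 1 log2 unit. NF-YC2 had -1.41 ± 0.31 (SE, adjusted p = 0.0110), with levels of 21.0 to 30.6 FPKM in pad4 labelled -Fe and 50.9 to 83.3 FPKM over the other 9 libraries. Summed root gene transcripts were also highest in pad4 labelled -Fe, at 470 to 531 FPKM against 318 to 357 FPKM elsewhere. So were those of the meristem and young organ genes, at 114 to 134 FPKM against at most 107 elsewhere. The interaction was called higher for 2 of 7 root genes tested, 3 of 10 meristem and young organ genes and 0 of 7 green leaf genes. Of all loci, 7.07% were called higher. The part of these tissues in these differences was not tested.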

How the results depend on the processing

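Of the 108 log2 differences recomputed under the alternatives, none reversed: 2138 of 2268 values kept their direction and side of the threshold, 100 were no longer called and 30 became called. Demanding a difference of at least 1 log2 unit left 6 members called in wild type and 13 in pad4 between the Fe labels, 2 between the genotypes labelled -Fe, and 1 in the interaction. Without the 4 libraries that stood apart, 4 members were called between the genotypes labelled +Fe, 21 labelled -Fe and 13 in the interaction; the cause was not tested. With both compared groups alone in the fit, 1 was called labelled +Fe. Leaving out 1 library at a time gave 34 to 39 members called in wild type and 37 to 42 in pad4, 0 to 1 and 9 to 13 between the genotypes labelled +Fe and -Fe, and 3 to 7 in the interaction. Across scalings, the median of all loci moved by less than 0.1.

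With a replicate block in the fit of all groups, 1 member was called between the genotypes labelled +Fe, and the counts of the other contrasts stayed within 1.5 times of those reported; AT5G02570 became called in wild type and NF-YC3 between the genotypes labelled -Fe and in the interaction, and NF-YC9 and HTA5 were no longer called in pad4. In blocked fits of the compared groups alone, added after seeing the data, 11 members were called between the genotypes labelled +Fe. Between the labels in wild type 47 were called. Of all loci, 28.6% and 66.1% were called in these fits. Over all 4 groups, 10 of 18 same-numbered pairs correlated over 0.1, and 4 of 12 libraries correlated best with their own number.

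FPKM without read totals give no counting error, and 3 libraries per group limit precision. Values of near-identical copies, and of AT3G53650, TUBG1 and NF-YC12, each split over 2 loci, depend on how reads were shared.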

Other observations

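The 4 libraries that stood apart were picked because their deviations agreed, so loci extreme in all 4 groups follow from that choice. Over all 20173 loci, 19.7% were highest in that library within each of the 4 groups and 16% were lowest. Of the 53 members, 15.1% were highest there in all 4 groups and 26.4% were lowest. The 8 highest were HTA10, HTA12, HTB2, HIS4, TUB1, the first TUBG1 locus, FTSZ2-1 and NF-YC9. Among the 14 lowest were HTA9, HTA8, TUA1, TUA3, TUA5, TUB4 and NF-YC2. HIS4 reached 106, 119.9, 106 and 116 FPKM in those libraries and stayed between 64.7 and 81.9 FPKM in the other 8. These libraries were set apart from the data, not by a label, so no test is given.

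Beyond the members, 3 genes are named here after their values were seen. AT1G13370, annotated in the deposited table as a putative histone H3, was called lower in pad4 among the libraries labelled -Fe, -0.92 ± 0.15 (SE, adjusted p = 0.000836), with 2.84 to 3.17 FPKM in wild type and 0.808 to 1.54 FPKM in pad4. ARP6, a subunit of the complex that loads H2A.Z, was called higher there, 0.50 ± 0.082 (SE, adjusted p = 0.000821), at 11.7 to 14.1 FPKM in wild type and 17.2 to 19.9 FPKM in pad4. MAP65-1, a microtubule bundling protein gene, was also higher in pad4 labelled -Fe, 0.38 ± 0.068 (SE, adjusted p = 0.00147).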
